A study of Mus musculus with 24 samples.

Results

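The 10 genes described here carry or regulate the liver's glucose production and its response to fasting: Pck1, G6pc, Fbp1, Got1, Tat, Ppargc1a, Klf15, Igfbp1, Lpin1 and Ppp1r3c. They were chosen by name, and every probe set that the platform annotation assigns to them was taken, which gave 17 probe sets among 20380 with 1 gene symbol, or 10 genes among 12393. Livers came from 24 female mice of mixed C57BL/6x129Sv background, with 1 Affymetrix array per mouse and 2 mice in each of 12 groups. The mice were wild type, lacked mouse CAR (knockout), or carried human CAR on the same CAR-null background (human CAR mice), where the transgene was driven by the mouse albumin promoter. CAR, encoded by Nr1i3, is the constitutive androstane receptor, a nuclear receptor that switches on drug-metabolising genes in hepatocytes. Mice of each genotype were injected intraperitoneally over 3 days, at intervals of 24 h, with corn oil as the control, with phenobarbital at 100 mg/kg per day, with CITCO at 30 mg/kg per day, or once with TCPOBOP at 3 mg/kg and then with corn oil alone. The mice ate normal chow, and 6 h separated the final injection from collection of the liver. No fast is mentioned in the labels, and the feeding state at death is not given. Values are log2 expression, and a gene is called changed when its adjusted p in limma, Benjamini-Hochberg over the 9167 genes tested, is under 0.05.

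In fasting, glucagon, glucocorticoids and falling insulin raise the transcription of the gluconeogenic enzymes, largely through CREB, FOXO1 and the glucocorticoid receptor with the coactivator encoded by Ppargc1a, and refeeding reverses this within hours. Pck1 makes phosphoenolpyruvate from oxaloacetate, Fbp1 removes a phosphate from fructose 1,6-bisphosphate, and G6pc releases free glucose. Got1 and Tat are aminotransferases that feed amino acid carbon into the pathway, Klf15 is a transcription factor of amino acid use in fasting, and Igfbp1 encodes a secreted binding protein that insulin suppresses. Lpin1 encodes a phosphatidate phosphatase and coactivator induced by fasting and glucocorticoids, and Ppp1r3c a glycogen-targeting subunit of protein phosphatase 1.

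The promoters of 5 of these genes are shown: Klf15, Lpin1 and G6pc, which passed the test under phenobarbital, Ppp1r3c, which passed it under TCPOBOP, and Pck1, in which the cAMP response element was classically described. Each run holds the 250 bases before the RefSeq start site on GRCm38.p6, 5′ to 3′ on the gene's strand. They lie at chr2:173152823-173153072 on the plus strand (Pck1), chr11:101367466-101367715 plus (G6pc), chr6:90462326-90462575 plus (Klf15), chr12:16610967-16611216 minus (Lpin1) and chr19:36736605-36736854 minus (Ppp1r3c). Capitals mark TGACG, part of the cAMP response element, in Pck1 and Klf15, AGGTCA, a nuclear receptor half-site, in G6pc and Lpin1, and CACGTG, the E-box of the clock factors, in Klf15 and Ppp1r3c.
Pck1: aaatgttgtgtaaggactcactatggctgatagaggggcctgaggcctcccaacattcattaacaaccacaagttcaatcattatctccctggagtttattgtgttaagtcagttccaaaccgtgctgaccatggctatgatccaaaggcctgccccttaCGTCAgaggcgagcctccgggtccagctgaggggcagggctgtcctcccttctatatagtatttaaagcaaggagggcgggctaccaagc
G6pc: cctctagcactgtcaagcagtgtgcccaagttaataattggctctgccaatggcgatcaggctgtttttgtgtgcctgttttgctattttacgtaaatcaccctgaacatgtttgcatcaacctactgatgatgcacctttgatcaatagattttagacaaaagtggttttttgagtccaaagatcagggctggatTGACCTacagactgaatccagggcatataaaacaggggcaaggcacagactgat
Klf15: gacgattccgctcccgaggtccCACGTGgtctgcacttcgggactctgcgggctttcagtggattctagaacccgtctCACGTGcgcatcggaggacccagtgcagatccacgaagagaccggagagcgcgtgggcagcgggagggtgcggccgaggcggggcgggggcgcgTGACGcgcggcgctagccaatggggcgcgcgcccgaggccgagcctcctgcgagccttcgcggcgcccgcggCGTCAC
Lpin1: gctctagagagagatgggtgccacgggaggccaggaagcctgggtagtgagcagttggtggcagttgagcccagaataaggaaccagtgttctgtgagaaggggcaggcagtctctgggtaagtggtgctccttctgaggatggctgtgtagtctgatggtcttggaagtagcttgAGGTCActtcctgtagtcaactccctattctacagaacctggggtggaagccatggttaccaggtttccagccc
Ppp1r3c: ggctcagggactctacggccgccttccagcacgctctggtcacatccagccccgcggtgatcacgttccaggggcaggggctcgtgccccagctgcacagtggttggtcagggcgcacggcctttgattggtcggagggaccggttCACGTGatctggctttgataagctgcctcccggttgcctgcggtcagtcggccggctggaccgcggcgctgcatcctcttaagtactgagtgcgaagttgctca
Motifs were searched on both strands, so the reverse complement also counts. The match in Pck1 lies at -90 to -86 from the start site, and that in G6pc at -54 to -49. In the windows of 300 bases, which add the first bases of the transcript, TGACG was found in 3 of the 10 genes (Pck1, Klf15 and Ppargc1a) and in 20.8% of all 32851 promoter windows. CACGTG was found in 2 of them (Ppp1r3c and Klf15), against 7.15% of all windows, and AGGTCA in 3 (G6pc, Lpin1 and Got1), against 16.3%. TGACG is part of TGACGTCA, and in Klf15 the last CACGTG crosses the start site and overlaps the last TGACG. The whole cAMP response element TGACGTCA, in 1.79% of windows, the FOXO element TGTTTAC, in 3.65%, and the D-box TTATGTAA, in 0.938%, were not found in these 10 windows. Fbp1, Igfbp1 and Tat held none of the 6 motifs. For Klf15, Lpin1, Tat and Ppargc1a the window lies inside the annotated gene, and for Fbp1 its last bases do, so a motif found or not found there concerns this start site only. The genes without a printed promoter lie at chr13:62864753-62888298 (Fbp1), chr11:7197787-7202546 (Igfbp1), chr5:51454249-52115853 (Ppargc1a), chr8:109986078-109999804 (Tat) and chr19:43499752-43524605 (Got1).

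The genotype and the ligands were checked on Nr1i3 and on Cyp2b10, the standard CAR target. Nr1i3 lay between 6.84 and 8.0 (log2 expression) in the 8 livers of wild-type mice and between 5.03 and 5.60 in the 16 others, and the human transcript was not analysed here. Cyp2b10 reached 11.88 to 12.48 in wild-type mice on phenobarbital or TCPOBOP and 11.22 to 11.68 in human CAR mice on phenobarbital or CITCO, and stayed between 4.45 and 5.71 in the knockout. On corn oil it was already 8.22 and 8.82 in human CAR mice, against 4.66 and 5.22 in wild type. In wild-type mice on CITCO it was 7.36 and 8.98, also above corn oil. The 2 arrays with the lowest median correlations to the rest were knockout phenobarbital replicate 2 (0.957) and human CAR phenobarbital replicate 1 (0.935). The other 22 had 0.960 to 0.982. Below, these 2 are called the arrays that stood apart. The cut was narrow for the knockout array, since wild-type TCPOBOP replicates 1 and 2 had 0.963 and 0.960. The mean of 9 hepatocyte markers ran from 11.68 to 12.18 over all arrays, and all 9 were above the limit for dim probe sets on every array. Markers of adipocytes (mean 4.21 to 4.77), cholangiocytes (4.27 to 4.73) and pancreas acinar cells (5.20 to 5.66) were low. In whole liver, fewer cells of a type and less RNA per cell cannot be told apart.

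**Figure D1:**
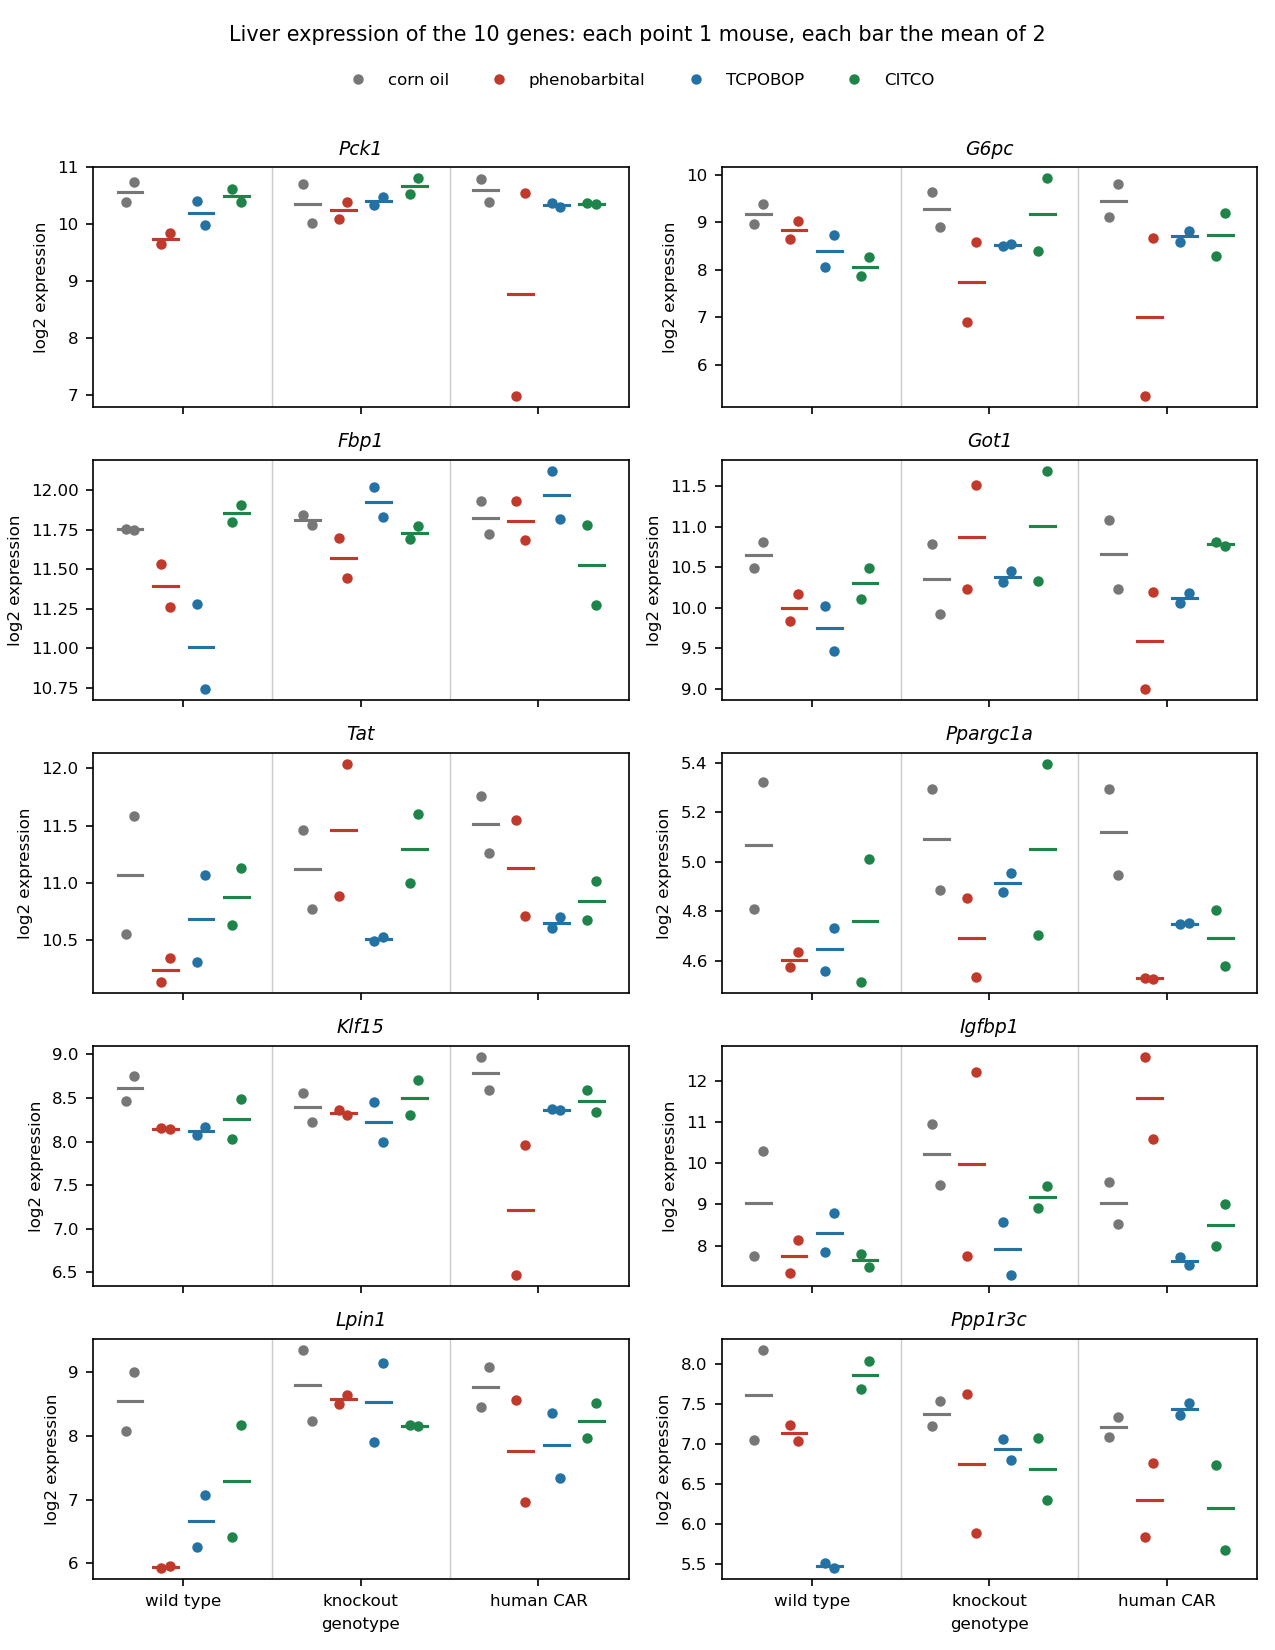
Log2 expression (vertical axis, a different range in each panel) of the 10 genes in 24 livers, grouped by genotype along the horizontal axis and coloured by treatment, with 1 point per mouse and a bar at the mean of the 2 mice. Lpin1 lay at 5.92 and 5.95 in wild-type mice on phenobarbital, Ppp1r3c at 5.51 and 5.45 in wild-type mice on TCPOBOP, and 1 human CAR mouse on phenobarbital lay far below its partner for Pck1 and G6pc.

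Levels of the 10 genes differed more between mice of the same group than those of most genes, and this set the error of every comparison. The pooled SD within a group was 1.26 for Igfbp1, 0.895 for G6pc, 0.765 for Pck1 and 0.70 for Lpin1, against a median of 0.143 over the 9167 genes tested. These 4 values lay at percentiles 99.9, 99.7, 99.6 and 99.5 of all genes, and those of Ppp1r3c, Got1, Tat, Klf15, Ppargc1a and Fbp1 at 98.6, 98.6, 97.9, 95.9, 88.0 and 78.5. Without the groups of the 2 arrays that stood apart, the SD fell to 0.239 for Pck1 (percentile 92.5) and 0.509 for G6pc (99.2), and Igfbp1 still had 0.850 (99.9). The widest gap within a pair was that of Igfbp1 in knockout mice on phenobarbital, 7.75 against 12.22. The second was that of Pck1 in human CAR mice on phenobarbital, 6.97 against 10.55. In wild-type mice on corn oil, the reference of the wild-type comparisons, replicate 2 was higher than replicate 1 in 9 of 10 genes, with Igfbp1 at 7.74 and 10.31, Lpin1 at 8.08 and 9.01 and Ppp1r3c at 7.05 and 8.18. The labels name no hours of feeding, litters or hybridisation batches.

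**Figure D2:**
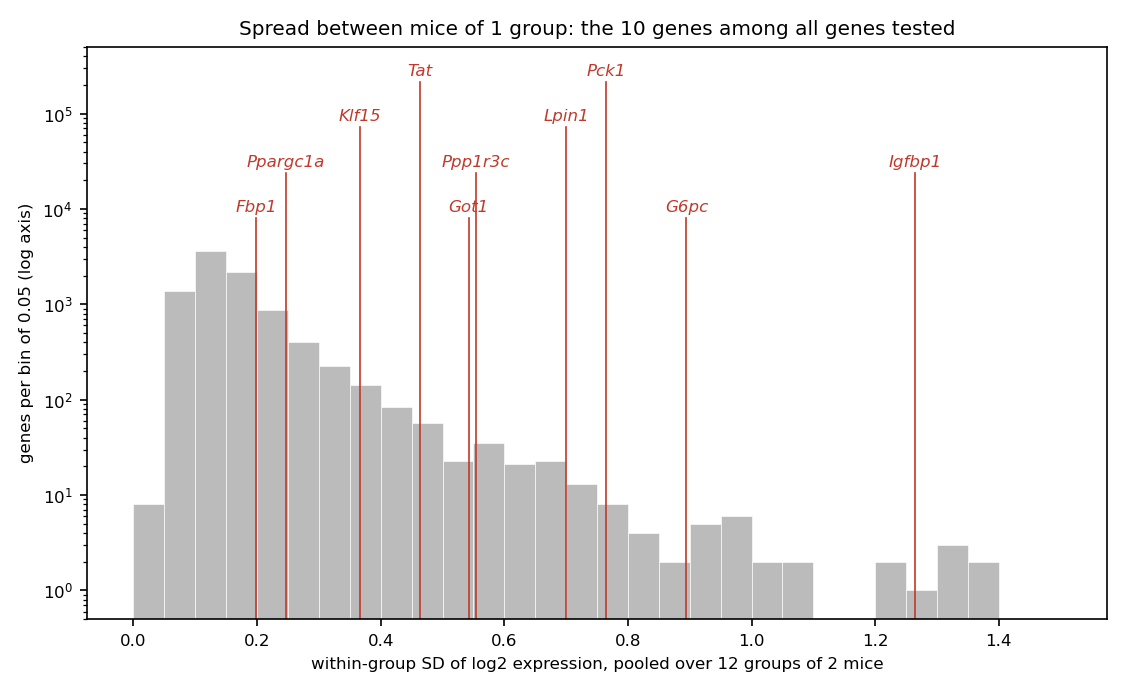
Pooled SD of log2 expression within groups of 2 mice (horizontal axis) against the number of genes per bin of 0.05 (vertical axis, log scale) for the 9167 genes tested, with red lines at the 10 genes. Igfbp1 at 1.26, G6pc at 0.895 and Pck1 at 0.765 lie in the far tail, and Fbp1 at 0.199 is the closest of the 10 to the median of 0.143.

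On corn oil the 3 genotypes were not told apart by any of the 10 genes. Differences of knockout from wild type ran from -0.30 (Got1) to 1.19 (Igfbp1), with 0 of 10 genes called against 0.229% of all genes. Human CAR mice gave differences of -0.40 (Ppp1r3c) to 0.44 (Tat) from wild type, with 0 called against 0.0545%, and of -1.18 (Igfbp1) to 0.39 (Klf15 and Tat) from knockout, with 0 called against 0.12%. None of the 10 genes had an unadjusted p under 0.05 in limma in these 3 comparisons. With 2 mice a group, the 95% interval for Pck1 in human CAR mice against wild type ran from -1.36 to 1.43, so a basal difference of 2-fold in either direction was not excluded. Pck1 on corn oil had the values 10.38 and 10.75 in wild type, 10.69 and 10.01 in mice without CAR, and 10.79 and 10.39 with human CAR. The pairs overlap, as do those of G6pc, at 8.96 and 9.39, 9.65 and 8.90, and 9.11 and 9.80.

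TCPOBOP, a ligand of mouse CAR, lowered 2 of the 10 genes in wild-type mice, against 6.14% of all genes called in that comparison. They were Ppp1r3c, which directs a phosphatase to glycogen, and Fbp1. All 10 genes had a difference below 0, with a median of -0.73, against a median of 0.01 over all genes. These 10 values share the same 2 corn oil mice, which also serve the phenobarbital and CITCO comparisons in wild type, and the corn oil mice of the other genotypes are shared in the same way.

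Ppp1r3c lay at 7.05 and 8.18 on corn oil and at 5.51 and 5.45 on TCPOBOP in wild type, and the groups did not overlap. It fell by 2.14 on the log2 scale (SE 0.48, 95% interval -3.16 to -1.12, adjusted p = 0.0123 in limma), to 0.227 of the corn oil level. In knockout it lay at 7.22 and 7.54 on corn oil and at 7.06 and 6.81 on TCPOBOP, and in human CAR mice at 7.09 and 7.34 and at 7.37 and 7.51. The differences there were -0.44 (adjusted p = 0.736) and 0.22 (adjusted p = 0.948). The second, dimmer probe set of Ppp1r3c lay at 5.61 and 6.41 on corn oil and at 5.13 and 5.02 on TCPOBOP, a difference of -0.93 (adjusted p = 0.145 over all probe sets). The call of Ppp1r3c was lost when corn oil replicate 2 (-1.58, adjusted p = 0.175), TCPOBOP replicate 1 (adjusted p = 0.069) or TCPOBOP replicate 2 (adjusted p = 0.0843) was left out.

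Fbp1 had the values 11.76 and 11.75 on corn oil and 11.28 and 10.74 on TCPOBOP in wild type. It fell by 0.74 (SE 0.18, 95% interval -1.13 to -0.35, adjusted p = 0.0229), to 0.597 of the control. In knockout mice it lay at 11.84 and 11.78 on corn oil and at 12.02 and 11.83 on TCPOBOP, and in human CAR mice at 11.93 and 11.73 and at 12.12 and 11.82. Both wild-type mice on TCPOBOP lay below all 8 mice of those groups. The call was lost without TCPOBOP replicate 2 (-0.47, adjusted p = 0.245), corn oil replicate 1 (adjusted p = 0.114) or corn oil replicate 2 (adjusted p = 0.117).

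Lpin1 lay at 8.08 and 9.01 on corn oil and at 6.25 and 7.07 on TCPOBOP in wild type, a difference of -1.88 (SE 0.60, adjusted p = 0.0812) that did not pass. Without the 2 arrays that stood apart, which belong to other groups and only change the pooled spread, it passed (adjusted p = 0.0421), and 3 of 10 genes were called against 9.64% of all genes. The other 7 genes had differences of -0.91 (Got1) to -0.37 (Pck1), with a smallest adjusted p of 0.295. Hepatocyte markers also lay lower in these mice, with a mean over 9 of 11.68 and 11.76 on TCPOBOP against 11.95 and 12.06 on corn oil, and 1 of 9 tested (Asgr1) was called lower. The part of hepatocyte markers in these results was not tested.

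In the knockout, TCPOBOP changed 0 of 10 genes against 0.0764% of all genes, and in human CAR mice 0 against 0%, with 0 and 1 genes at an unadjusted p under 0.05 in limma. Their median differences were -0.22 and -0.48. The widest was that of Igfbp1 in knockout, -2.29 (SE 1.09, adjusted p = 0.439), with 10.95 and 9.48 on corn oil and 8.57 and 7.28 on TCPOBOP. Averaged over the 3 genotypes, TCPOBOP changed 0 of 10 genes in limma (5 at an unadjusted p under 0.05), against 3.7% of all genes. Without the 2 arrays that stood apart, Igfbp1 (-1.47, adjusted p = 0.0407) and Ppp1r3c (-0.79, adjusted p = 0.029) passed in that mean.

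**Figure D3:**
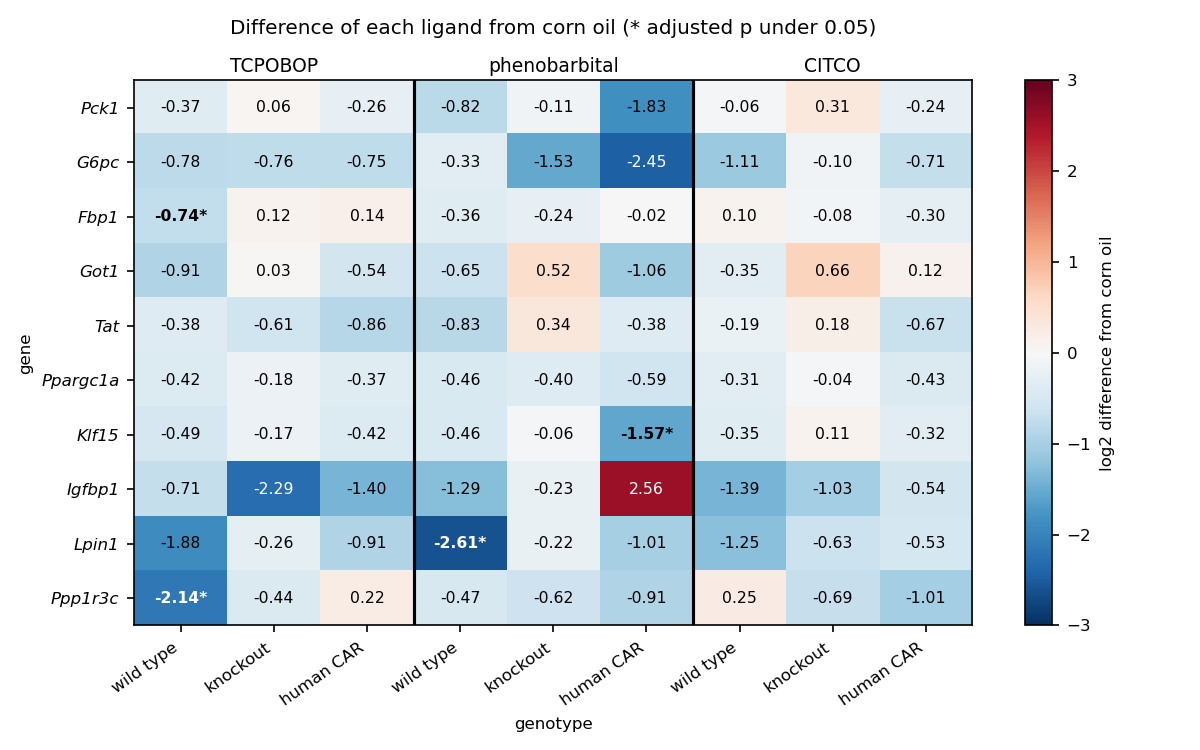
Log2 difference of each ligand from corn oil for the 10 genes (rows) within each genotype (columns), from the limma fit to all 24 arrays, with blue below and red above 0 and an asterisk where the adjusted p is under 0.05. The 4 marked cells are Fbp1 (-0.74) and Ppp1r3c (-2.14) under TCPOBOP in wild type, Lpin1 (-2.61) under phenobarbital in wild type and Klf15 (-1.57) under phenobarbital in human CAR mice.

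Phenobarbital, an indirect activator of CAR of both species, lowered Lpin1 in wild-type mice, the 1 gene of 10 called there against 1.47% of all genes. Lpin1 lay at 8.08 and 9.01 on corn oil and at 5.92 and 5.95 on phenobarbital. It fell by 2.61 (SE 0.60, 95% interval -3.89 to -1.33, adjusted p = 0.0414 in limma), to 0.164 of the corn oil level. Its pairs on corn oil and phenobarbital were 9.36 and 8.24 against 8.51 and 8.65 in knockout, and 8.45 and 9.09 against 8.56 and 6.97 in human CAR mice. The difference was -0.22 (adjusted p = 0.848) in knockout and -1.01 (adjusted p = 0.341) in human CAR mice. The second Lpin1 probe set gave -2.54 in wild type (adjusted p = 0.0792 over all probe sets), with 7.69 and 8.51 on corn oil and 5.37 and 5.75 on phenobarbital. The call was lost whichever of the 4 arrays was left out, with differences from -3.08 to -2.14 and adjusted p from 0.0838 to 0.307. All 10 genes had a difference below 0 (median -0.56), and besides Lpin1 they ran from -1.29 (Igfbp1) to -0.33 (G6pc). Without the 2 arrays that stood apart, Pck1 passed as well (-0.82, adjusted p = 0.0459), from 10.38 and 10.75 to 9.65 and 9.83, with 2 genes called against 2.68% of all genes.

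In human CAR mice phenobarbital lowered Klf15, the 1 gene of 10 called there against 0.665% of all genes, and the call did not hold without either of 2 mice. Klf15 lay at 8.97 and 8.59 on corn oil and at 6.47 and 7.96 on phenobarbital. It fell by 1.57 (SE 0.32, adjusted p = 0.0451 in limma), and the difference was -0.82 without phenobarbital replicate 1 (adjusted p = 0.394) and -1.38 without corn oil replicate 1 (adjusted p = 0.284). The phenobarbital replicate 1 mouse also had the lowest level of all 24 for Pck1 (6.97), G6pc (5.33) and Got1 (9.0), and the highest for Igfbp1 (12.59). Its neutrophil markers averaged 8.07, against 6.10 to 6.74 on the other 23 arrays, and their part in its values was not tested. The other phenobarbital mouse had 10.55 for Pck1, 8.68 for G6pc and 10.59 for Igfbp1, and the corn oil mice 10.79 and 10.39, 9.11 and 9.80, and 9.54 and 8.53. Differences of -1.83 (Pck1), -2.45 (G6pc) and 2.56 (Igfbp1) had adjusted p of 0.142, 0.111 and 0.2.

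In the knockout phenobarbital changed 0 of 10 genes against 0.731% of all genes (0 at an unadjusted p under 0.05 in limma). G6pc had the largest difference, -1.53 (SE 0.77, adjusted p = 0.264), from 9.65 and 8.90 on corn oil to 6.90 and 8.59. Replicate 2, the array that stood apart, had Igfbp1 at 12.22, Tat at 12.04 and Got1 at 11.51, against 7.75, 10.89 and 10.24 in replicate 1. Its Kupffer cell markers averaged 6.54, the lowest of 24 arrays. In the knockout 4 of 11 Kupffer markers were called lower under phenobarbital, against 0.731% of all genes, and most leave-outs ended each call. Their mean in knockout corn oil mice was 8.15 and 7.94, the first the highest of 24 arrays. Knockout mice on TCPOBOP (7.39 and 6.85) and CITCO (7.20 and 7.33) also lay below these. Human CAR mice overlapped, with 6.93 and 7.15 on phenobarbital and 7.38 and 7.08 on corn oil. Wild-type mice did not, with 7.21 and 7.10 against 7.88 and 7.48. In the mean of the genotypes 8 of 11 Kupffer markers were called lower, against 15.8% of all genes. Of 10 endothelial markers, 3 were called lower in that mean. Without the 2 arrays that stood apart, the list medians in that mean went from -0.72 to -0.55 (Kupffer) and from -0.26 to -0.18 (endothelial). The part of both lists in the results on the 10 genes was not tested.

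Averaged over the 3 genotypes, phenobarbital lowered G6pc, Lpin1 and Klf15, where 15.8% of all genes were called. Ppargc1a also passed the test, but it is dim and is taken below as a description only. The count of 4 of 10 includes it. G6pc fell by 1.44 (SE 0.44, adjusted p = 0.0401 in limma), Lpin1 by 1.28 (SE 0.35, adjusted p = 0.0254) and Klf15 by 0.70 (SE 0.19, adjusted p = 0.0235). Without human CAR phenobarbital replicate 1 the difference was -0.88 for G6pc (adjusted p = 0.0961) and -0.45 for Klf15 (adjusted p = 0.041). Without the 2 arrays that stood apart 2 of them remained called, G6pc (-1.16, adjusted p = 0.0363) and Lpin1 (-1.57, adjusted p = 0.0343), against 2.92% of all genes. With 1 of the 12 arrays left out in turn, G6pc stayed called in 2 cases, Lpin1 and Ppargc1a in 6 and Klf15 in 7. None of these 4 genes stayed called without wild-type phenobarbital replicate 1, wild-type corn oil replicate 2, knockout corn oil replicate 1 or human CAR corn oil replicate 1. Ppargc1a, the coactivator gene, had a difference of -0.48 (SE 0.13, adjusted p = 0.0235) but was dim: its brightest probe set exceeded the limit for dim probe sets on 4 of 24 arrays, of which 3 were corn oil arrays and none a phenobarbital array. It thus entered the test mainly through the group in which it was high, so its value is a description. With no dim filter its adjusted p was 0.0247. It lay at 4.81 and 5.32, 5.29 and 4.89, and 5.30 and 4.95 on corn oil, and at 4.58 and 4.63, 4.85 and 4.53, and 4.53 and 4.53 on phenobarbital, in wild type, knockout and human CAR mice. All 6 phenobarbital values lay below 5 of the 6 corn oil values, and values so close to background understate a change. Of its 4 other probe sets, 3 never exceeded the limit, and the fourth gave -0.29 (adjusted p = 0.303 over all probe sets).

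CITCO, known as a ligand of human CAR, under which Cyp2b10 also lay above its corn oil level in wild type, changed none of the 10 genes in any genotype. In wild type 0 of 10 were called against 0.0327% of all genes, in knockout 0 against 0.0327%, in human CAR mice 0 against 0.0873%, and in the mean of the genotypes 0 against 0.0327%. At an unadjusted p under 0.05 in limma the counts were 0, 0, 0 and 1. In human CAR mice, where Cyp2b10 was at 11.37 and 11.68, G6pc lay at 8.30 and 9.19 against 9.11 and 9.80 on corn oil, and Ppp1r3c at 6.74 and 5.68 against 7.09 and 7.34. Their differences were -0.71 (95% interval -2.34 to 0.92) and -1.01 (95% interval -2.02 to 0.01, adjusted p = 0.668). These intervals do not exclude a change of the size seen for Fbp1 under TCPOBOP. In wild-type mice on CITCO, Lpin1 was 6.41 in 1 mouse and 8.18 in the other.

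Mice of different genotypes on the same ligand were also compared. Under TCPOBOP, wild type differed from knockout in 1 of 10 genes, against 7.37% of all genes. That gene was Fbp1, at 11.28 and 10.74 against 12.02 and 11.83, a difference of -0.92 (SE 0.18, adjusted p = 0.00512 in limma). All 9 hepatocyte markers also lay lower in wild type, with a median of -0.28, and 2 were called (Alb -0.48, adjusted p = 0.000778, and Apob -1.01, adjusted p = 0.0405), and their part in the Fbp1 difference was not tested. The Fbp1 call was lost without wild-type TCPOBOP replicate 2 (adjusted p = 0.103) or knockout TCPOBOP replicate 1 (adjusted p = 0.0665). Lpin1 (-1.87, adjusted p = 0.0751) and Ppp1r3c (-1.46, adjusted p = 0.0812) did not pass, and without the 2 arrays that stood apart 3 genes were called against 11.1% of all genes. Under phenobarbital, 1 of 10 genes differed against 1.37% of all genes: Lpin1, at 5.92 and 5.95 in wild type and 8.51 and 8.65 in knockout (-2.64, SE 0.60, adjusted p = 0.0362). Of the 4 arrays, leaving out any but knockout phenobarbital replicate 1 ended that call, with adjusted p from 0.223 to 0.234. Under CITCO 0 genes differed against 0.218%. Human CAR mice differed from knockout in 0 of 10 genes under TCPOBOP (against 0.0327%), phenobarbital (0.0873%) and CITCO (0.164%), with 0, 3 and 0 at an unadjusted p under 0.05 in limma.

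The difference of a ligand's effect between genotypes did not pass for any of the 10 genes, so an effect called in 1 genotype alone was not shown to be particular to it. For TCPOBOP, wild type minus knockout, 0 of 10 were called against 1.95% of all genes, and Fbp1 (-0.86, 95% interval -1.41 to -0.31, adjusted p = 0.123) and Ppp1r3c (-1.70, 95% interval -3.14 to -0.26, adjusted p = 0.292) came closest, the 2 with an unadjusted p under 0.05 in limma. For phenobarbital 0 were called against 0.153% (1 at an unadjusted p under 0.05), and Lpin1 had -2.39 (95% interval -4.20 to -0.58, adjusted p = 0.396). For CITCO 0 were called against 0.0218%. Between human CAR mice and knockout 0 were called for TCPOBOP (against 0%), phenobarbital (0.0109%) and CITCO (0.0327%), with 0, 2 and 0 at an unadjusted p under 0.05. Klf15 had the smallest adjusted p of these, 0.333 for phenobarbital (-1.51).

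**Figure D4:**
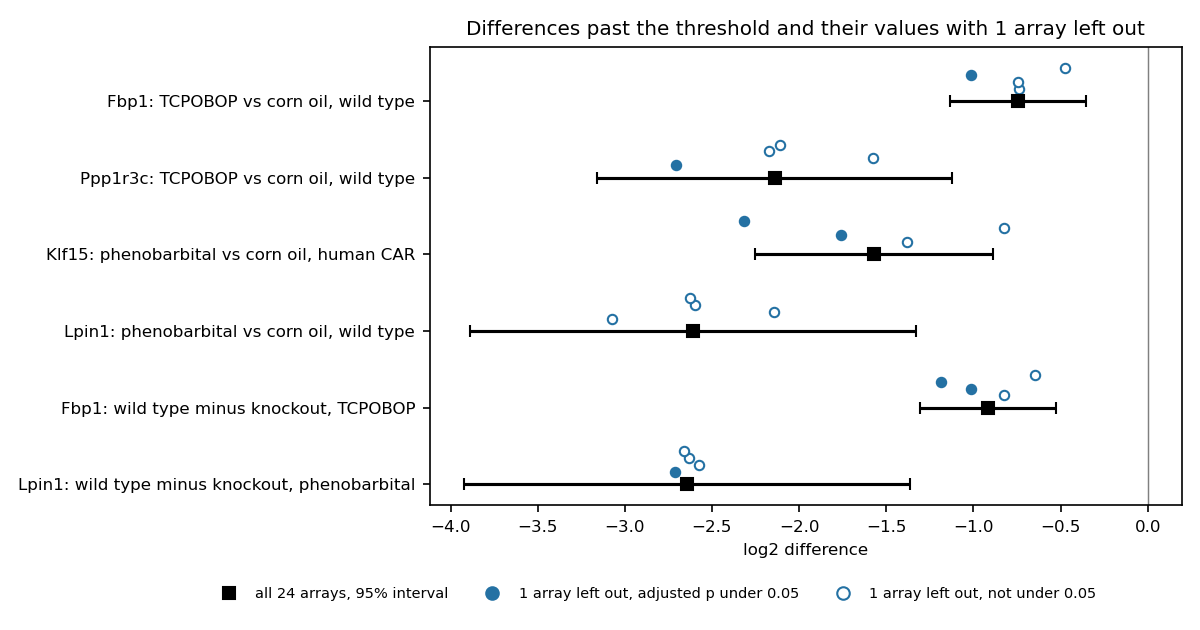
Log2 differences (horizontal axis) of the 6 called pairs of gene and comparison outside the mean over genotypes: squares with 95% intervals from all 24 arrays, and circles with 1 of the arrays compared left out, filled where the adjusted p stayed under 0.05. Lpin1 in wild type on phenobarbital has no filled circle, and Klf15 in human CAR mice moves to -0.82 without 1 mouse.

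Across the 12 groups the order of the means differed from gene to gene, and most neighbours in it overlapped. Lpin1 ran from 8.80 (SD 0.79, n = 2) in knockout on corn oil down to 6.66 (SD 0.58) in wild type on TCPOBOP and 5.94 (SD 0.02) in wild type on phenobarbital, and only the last step had no overlap between neighbours. Ppp1r3c ran from 7.87 (SD 0.25) in wild type on CITCO to 6.21 (SD 0.75) in human CAR mice on CITCO and 5.48 (SD 0.04) in wild type on TCPOBOP, again with no overlap at the last step only. Fbp1 ran from 11.97 (SD 0.22) to 11.01 (SD 0.38), with wild type on TCPOBOP last, and every pair of neighbours overlapped. Igfbp1 had the widest range, from 11.59 (SD 1.41) in human CAR mice on phenobarbital to 7.63 (SD 0.14) in the same genotype on TCPOBOP, with all neighbours overlapping. Tat was highest in human CAR mice on corn oil (11.51, SD 0.35) and lowest in wild type on phenobarbital (10.24, SD 0.15), and Got1 ran from 11.01 (SD 0.96) in knockout on CITCO to 9.60 (SD 0.85) in human CAR mice on phenobarbital.

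Some of the 10 genes followed each other from mouse to mouse. Over the 24 arrays, which share the group structure, Pearson's r was 0.87 between Pck1 and Klf15, 0.78 between G6pc and Klf15, 0.75 between Pck1 and G6pc and 0.74 between Igfbp1 and Tat. Over the 22 arrays without those that stood apart, these values were 0.48, 0.45, 0.30 and 0.64. The 2 arrays were left out together, so the part of each is not given. Human CAR phenobarbital replicate 1 had the lowest levels of all 24 for Pck1 (6.97), G6pc (5.33) and Klf15 (6.47). The 2 knockout mice on phenobarbital lay close together for Pck1 (10.08 and 10.39) and Klf15 (8.31 and 8.36). The highest values over 22 arrays were those of Ppargc1a with Tat (0.80) and with Klf15 (0.79). Klf15 with Tat gave 0.75 over 22 arrays and 0.12 over 24, and Got1 with Pck1, Klf15 and Ppargc1a gave 0.71, 0.70 and 0.71 over 22. Among all genes tested, those most like each of them over 24 arrays were Hgd for Klf15 (r = 0.88), Asl for Got1 (0.88), Rmnd5a for Fbp1 (0.88), Nnmt for Tat (0.87), Trp53inp1 for Igfbp1 (0.87), St3gal3 for Ppp1r3c (0.86), Hipk1 for Lpin1 (0.80), Numa1 for G6pc (0.80) and Tbc1d8 for Ppargc1a (0.76). With group means taken off, the nearest to Got1 was again Asl (0.92) and to Igfbp1 again Trp53inp1 (0.94), and the nearest to Tat was Igfbp1 (0.88). With group means taken off, r rests on 1 gap per group of 2 mice. The 2 arrays that stood apart are included in these values, and the nearest genes were not computed without them.

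The rest of the pathway was read from 10 lists of related genes, without the 10 genes above. Among 15 other enzymes of gluconeogenesis tested, TCPOBOP in wild type lowered 2 and raised 1, against 6.14% of all genes, with a list median of -0.03. Ldha, lactate dehydrogenase A, fell by 1.20 (SE 0.17, adjusted p = 0.000339) and stayed called whichever of the 4 arrays was left out, Gpd1 fell by 0.92 (adjusted p = 0.00942, held in 2 of 4) and the malate dehydrogenase gene Mdh2 rose by 0.39 (adjusted p = 0.0446, held in 1 of 4). Phenobarbital in wild type lowered 1 of the 15, Ldha (-0.91, adjusted p = 0.0134), against 1.47% of all genes, a call held in 1 of 4 leave-outs. In the mean of the genotypes phenobarbital lowered 4, among them Gpt2 (-0.87), Gpd1 (-0.40) and Ldha (-0.34), and raised G6pc3 (0.24), against 15.8% of all genes, and without the 2 arrays that stood apart it lowered 2 and raised 0. Of 13 glycogen genes tested, TCPOBOP in wild type raised Stbd1, a glycogen-binding protein (1.61, adjusted p = 0.0259), which was lost whichever array was left out. Gys2, the liver glycogen synthase, was lower by -1.53 in wild type than in knockout on TCPOBOP (adjusted p = 0.00121, called in 4 of 4 leave-outs), and its TCPOBOP effect differed between them by -1.94 (adjusted p = 0.00847). The 13 genes of glycolysis and glucose use had list medians between -0.11 and 0.10 in the 9 comparisons of a ligand with corn oil within a genotype.

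For TCPOBOP against corn oil in wild type, 6.14% of all genes were called, the share to set beside each list count there. Among 11 tested genes of the fasting response in fat oxidation, which are targets of PPAR alpha, all had a difference below 0 there (median -0.75). 2 were called lower: Cpt1a, which admits fatty acids to mitochondria (-1.16, adjusted p = 0.00394, held in 2 of 4 leave-outs), and Cpt2 (-0.75, adjusted p = 0.0214, held in 0 of 4). With 1 array left out, 0 to 3 of the 11 were called. The list median was 0.32 in knockout and 0.20 in human CAR mice. On TCPOBOP all 11 lay lower in wild type than in knockout, and 9 of them were called, against 7.37% of all genes. The largest differences called were those of Cyp4a14 (-6.23, adjusted p = 7.12e-05 in limma), Vnn1 (-2.71), Acot1 (-2.43) and Plin2 (-1.54). With 1 array left out 6 or 7 were called, with Plin2 in 0 of 4 cases and the other 3 in 4 of 4. The hepatocyte markers, lower in the same comparison with Alb called in 4 of 4 leave-outs, were not tested for their part in this. The TCPOBOP effect differed between wild type and knockout for Acot1 (-2.28, adjusted p = 0.043, held in 1 of 8 leave-outs) and Cpt1a (-1.38, adjusted p = 0.0274, held in 3 of 8). Among 18 genes of insulin and glucagon signalling, TCPOBOP lowered Igf1 (-0.63, adjusted p = 0.00117 in limma) and Igfbp4 (-0.59, adjusted p = 0.000771) in wild type, against 6.14% of all genes. Their effects differed from those in knockout by -0.80 (adjusted p = 0.00714 in limma) and -0.59 (adjusted p = 0.0255). In that comparison of effects 1.95% of all genes were called. How far these differences held with 1 array left out is given further below. Under phenobarbital Igfbp4 was also lower, in wild type (-0.48, adjusted p = 0.0164 in limma) and in the mean of the genotypes (-0.32, adjusted p = 0.00456). The wild-type call was lost whichever array was left out, and the call in the mean was kept each time.

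Of 24 transcription regulators of the fasting response, TCPOBOP in wild type lowered Cebpa (-0.55, adjusted p = 0.0334, held in 1 of 4 leave-outs), and its effect on Ppara differed between wild type and knockout by -2.22 (adjusted p = 0.0469), a call lost in 8 of 8 leave-outs. In the mean of the genotypes, where 15.8% of all genes were called, phenobarbital changed 4 of the 24, a share near that of all genes. It lowered Ppara (-0.93, adjusted p = 0.0165), Cebpa (-0.30) and the glucocorticoid receptor gene Nr3c1 (-0.23) and raised Nr4a1 (0.27), and these calls were lost without the 2 arrays that stood apart. Of 16 glucocorticoid-responsive genes, 2 were called higher in the phenobarbital mean (Gadd45a 1.71, Zbtb16 0.48) and 2 lower (Tsc22d3 -1.43, Angptl4 -0.90), again beside 15.8% of all genes. Without the 2 arrays that stood apart 1 was higher and 1 lower, and the list median went from 0.05 to -0.29. Of 16 genes of feeding and lipogenesis, the phenobarbital mean lowered 4 (Lpin2 -1.07, Acly -0.77, Dgat2 -0.48, Acacb -0.36), and 1 without the 2 arrays that stood apart. Of 14 clock genes, TCPOBOP raised Usp2 in knockout (1.12, adjusted p = 0.0449 in limma), against 0.0764% of all genes. The effect in wild type minus that in knockout was -1.15 (adjusted p = 0.0425), against 1.95% of all genes called. The first call was lost in 4 of 4 leave-outs and the second in 8 of 8. The phenobarbital mean lowered Dbp (-1.48), Cry2 (-0.43) and Tef (-0.43), and these calls were lost without those 2 arrays. Of 19 amino acid breakdown genes, TCPOBOP in wild type lowered Oat (-1.04, adjusted p = 0.0251) and Bcat2 (-0.84, adjusted p = 0.039), and with 1 array left out 0 or 1 of the 19 were called.

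**Figure D5:**
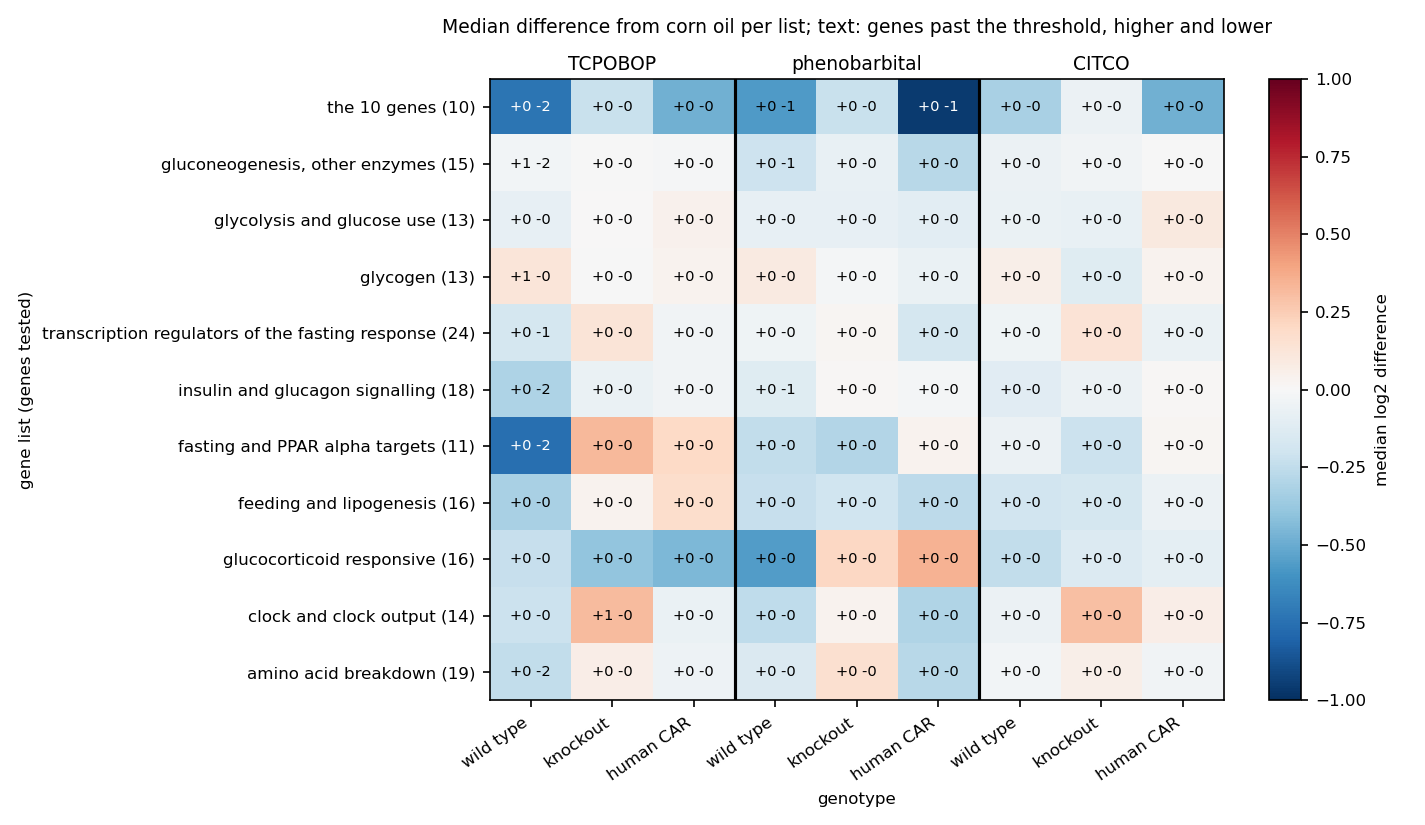
Median log2 difference from corn oil (colour) of the 10 genes and of 10 related gene lists (rows, with the number of genes tested) for each ligand and genotype (columns). The text in each cell gives the genes called higher and lower, and the fasting and PPAR alpha list under TCPOBOP has a median of -0.75 for wild type, 0.32 for knockout and 0.20 for human CAR.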

How the data were processed

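RNA of 24 livers was measured on 1 Affymetrix array each. The authors deposited RMA log2 expression values for 22690 probe sets, made with RMA in R 2.15.0 per the submitters' processing notes: background corrected, quantile normalized over the arrays and summarised per probe set, which compresses changes near background. Neither scan dates nor hybridisation batches are named in the labels. No further normalization was applied.

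Probe sets were named from the platform annotation: 20380 had 1 gene symbol, 691 had several, 1555 were not listed and 64 were controls, and 20351 matched RefSeq genes of GRCm38.p6 by gene ID. The probe set with the highest mean stood for a gene, and genes above the 40th percentile of an array on at least 2 arrays were tested (9167 of 12393). A limma model (version 3.58.1, R 4.3.3) with 12 group means and 12 residual degrees of freedom gave 27 comparisons, with Benjamini-Hochberg adjustment within each and calls at 0.05. The script was tested on simulated data.

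All 10 genes, with every probe set, were described in every comparison. Of each related list, at most 4 called genes with the largest change were named, and genes of similar pattern were the 3 with the highest Pearson r. The members and lists were chosen with earlier results of these data known. Alternatives covered normalization, the dim filter, probe set choice, the prior variance, array weights, arrays left out, a fit of the arrays concerned, a replicate block and a limit of 2-fold. Leave-outs of the lists, and of uncalled differences, were chosen after seeing the data. Promoters came from RefSeq and were searched with Python 3.11.15. No array was a copy of another: at most 0.0485% of values were equal in any of the 276 pairs of arrays.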

Additional observations from a re-analysis of the deposited data

Results flagged for a closer look

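For 7 genes of the related lists, the effect of TCPOBOP differed between wild type and knockout in limma, with Benjamini-Hochberg adjustment over all genes tested. Each value is the log2 difference from corn oil in wild type minus that in knockout, so it can come from a change in either genotype. Within wild type, Igf1 (-0.63), Igfbp4 (-0.59) and Cpt1a (-1.16) were called lower, and within knockout Usp2 was called higher (1.12). Igf1, the liver's circulating growth factor, had -0.80 (SE 0.15, adjusted p = 0.00714) and stayed called in 8 of 8 fits with 1 array left out. Gys2, the liver glycogen synthase, had -1.94 (SE 0.37, adjusted p = 0.00847) and stayed called in 7 of 8. Cpt1a had -1.38 (SE 0.31, adjusted p = 0.0274, called in 3 of 8), and Igfbp4, a binding protein of insulin-like growth factors, had -0.59 (SE 0.13, adjusted p = 0.0255, called in 2 of 8). Acot1, a thioesterase of fatty acyl-CoA, had -2.28 (SE 0.55, adjusted p = 0.043, called in 1 of 8). Ppara had -2.22 (SE 0.55, adjusted p = 0.0469) and Usp2 -1.15 (SE 0.28, adjusted p = 0.0425), and both calls were lost in all 8 fits.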

How the results depend on the processing

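Of 453 counts of called genes computed under an alternative, over all 27 comparisons, 398 were unchanged or within 1.5 times the main count. In most comparisons the main count was 0, and a 0 that stayed at 0 is among the 398. They therefore say little on how firm the calls were. Of the rest, 29 fell to 0, 18 moved by more than 1.5 times and 8 rose from 0. No called difference changed sign in any alternative. Counts over the 10 genes that moved were as follows, and the cause was not tested. For TCPOBOP in wild type (2 called) the count was 1 with a 2-fold limit and 4 in a fit of the arrays concerned only, and 0 to 1 with 1 array left out. For phenobarbital in wild type (1 called) it was 0 with cyclic loess, with the mean of probe sets or with a variance trend and robust prior, 2 without the 2 arrays that stood apart or with the arrays concerned only, and 0 with any array left out. For phenobarbital in human CAR mice (1 called) it was 0 with array weights, without the 2 arrays or with the arrays concerned only, and 0 to 4 with 1 array left out, the 4 without phenobarbital replicate 2. For TCPOBOP in the mean of genotypes (0 called) it was 1 with array weights and 2 without the 2 arrays or with the arrays concerned only. For phenobarbital in the mean of genotypes (4 called) it was 2 with array weights, a 2-fold limit or without the 2 arrays, 1 with the arrays concerned only, and 0 to 6 with 1 array left out. For wild type against knockout on TCPOBOP (1 called) it was 2 with array weights, 0 with a 2-fold limit, 3 without the 2 arrays, 4 with the arrays concerned only and 0 to 1 with 1 array left out. On phenobarbital (1 called) it was 0 with the mean of probe sets, the variance trend, array weights, without the 2 arrays or with the arrays concerned only, and 0 to 3 with 1 array left out. For the TCPOBOP effect, wild type minus knockout (0 called), it was 1 with array weights and 0 to 1 with 1 array left out. For human CAR mice against knockout on phenobarbital, and for the difference of that effect (0 called in each), it was 0 to 4 and 0 to 2 with 1 array left out. The replicate block gave 1 call for the TCPOBOP effect, wild type minus knockout, and changed no other count by over 1.5 times. Same-numbered mice did not deviate together (r of -0.45 to 0.42, median 0.03, over 66 pairs of groups), so the numbers were not taken as pairs. A group left with 1 array was assumed to vary like the others. With 2 mice a group and 12 residual degrees of freedom, the spread of the 10 genes limits what could be called, and Ppargc1a is further limited by a signal near background.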

Other observations

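Some list genes not described above differed between wild-type and knockout mice on TCPOBOP, a comparison in which 7.37% of all genes were called. Elovl5, a fatty acid elongase, was lower in wild type (-1.50, SE 0.29, adjusted p = 0.00321 in limma, called in 4 of 4 fits with 1 array left out). Scd1 (-1.51, adjusted p = 0.0369) and Me1 (-1.01, adjusted p = 0.02) were called in 1 and 2 of 4. Stbd1 was higher in wild type by 2.28 (SE 0.41, adjusted p = 0.00197, called in 4 of 4), and Sgk1, a kinase induced by glucocorticoids, by 1.87 (adjusted p = 0.0105, called in 2 of 4). The glucose transporter gene Slc2a2 was lower (-1.94, adjusted p = 0.0401), a call lost in all 4.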
